A study of Mus musculus with 12 samples.

Results

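The effect of a retinoic acid (RA) diet on liver mRNA was averaged over genotypes, by setting the 6 arrays of RA-fed mice against the 6 arrays of mice on normal diet with genotype as a covariate. All 12 arrays of the series entered, 1 per liver, and none was chosen by a measured value. Both genotypes had a C57BL/6 background. The study's methods give male sex and an age of 12 weeks for the wild type mice and do not clearly extend either to the deficient mice. The groups of 3 were wild type mice fed all-trans RA at 150 mg per kg of diet for 7 days (WT_RA), hepatocyte RXRα-deficient mice on the same RA diet (KO_RA), wild type mice on normal diet (WT) and deficient mice on normal diet (KO). In the deficient mice the fourth exon of Rxra, which is floxed and encodes the DNA-binding domain, had been removed by Cre under the albumin promoter. Those mice still made a truncated receptor with an intact ligand-binding domain, and liver cells other than hepatocytes were not targeted. The labels call the arrays of a group biological replicates.

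RA acts through the retinoic acid receptors, which bind paired half-sites in DNA as heterodimers with RXRα or another RXR, and which switch on genes that limit RA itself. In the liver RA also meets the stellate cells, which store vitamin A as retinyl esters, and the hepatocytes, which oxidize RA through Cyp26a1. Hepatocytes secrete the acute phase proteins, whose genes are driven by cytokines through factors such as C/EBP, STAT3 and NF-κB.

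Signals are the deposited log2 values, so a change of 1 is a doubling. Array medians lay between 6.26 and 6.35 and lower quartiles between 4.87 and 5.02. The hepatocyte product Alb read 13.8 to 14.0 on every array. Rxra averaged 10.23 in WT_RA, 10.84 in KO_RA, 10.57 in WT and 10.54 in KO mice, and since no source used here places its probes relative to the deleted exon, it does not check the genotype labels. WT_RA 3 and KO 1 stood apart by the control probe set for the 3′ end of Actb, at 9.40 for WT_RA 3 and 9.12 for KO 1, whereas 10 arrays gave 12.1 to 12.9. Results that change without both arrays are given with and without them.

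RA changed 198 of 12393 genes when averaged over genotypes, 129 of them higher and 69 lower (limma, additive model, Benjamini-Hochberg adjusted p under 0.05). This is 1.6% of the genes tested, 1.04% higher and 0.557% lower, and 1611 genes had an unadjusted p under 0.05. Among the strongest rises were those of Cyp26a1, the main RA hydroxylase, and the acute phase genes Lcn2, Orm2 and Saa2. The strongest falls were those of Elovl3, which elongates very long chain fatty acids, and Alas2, the erythroid enzyme of heme synthesis. A change over 1 on the log2 scale was found for 39 of the 198 genes, 29 up and 10 down.

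The promoters of 2 targets of the RA receptors that rose and of 4 acute phase genes are shown, because each holds a motif of the factors named above. Sequences are RefSeq promoters (GRCm38.p6), 250 bases before to 50 bases after the annotated start, read along the gene. In the first pair, capitals mark a direct repeat of the retinoid half-site with a spacer of 5 bases (DR5), searched on both strands. For Cyp26a1 the window is chr19:37697558-37697857 (+ strand) and the repeat, on the opposite strand, begins 32 bases upstream of the start. For Rarb it is chr14:16575427-16575726 (- strand) and the repeat begins 53 bases upstream.
Cyp26a1: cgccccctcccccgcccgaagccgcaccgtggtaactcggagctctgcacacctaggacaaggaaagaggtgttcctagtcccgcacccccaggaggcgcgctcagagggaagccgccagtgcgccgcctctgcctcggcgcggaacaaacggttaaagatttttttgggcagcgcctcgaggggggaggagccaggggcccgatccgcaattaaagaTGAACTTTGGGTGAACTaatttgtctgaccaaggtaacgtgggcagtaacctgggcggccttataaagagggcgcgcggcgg
Rarb: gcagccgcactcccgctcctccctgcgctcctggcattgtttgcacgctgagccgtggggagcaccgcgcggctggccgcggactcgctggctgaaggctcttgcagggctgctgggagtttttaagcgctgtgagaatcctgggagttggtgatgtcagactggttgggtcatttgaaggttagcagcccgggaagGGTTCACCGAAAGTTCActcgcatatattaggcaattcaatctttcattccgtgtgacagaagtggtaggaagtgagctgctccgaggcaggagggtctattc

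The DR5 pattern was found in 6 of 12566 promoters of the genes on the array (0.0477%), and in 2 of 145 promoters of genes that rose (1.38%). It was found in none of 72 promoters of genes that fell, and in none of the 79 promoters of gained rises or the 47 of gained falls. The other 4 genes that held it, Blvrb, Hbb-y, Ppbp and Tnfsf13b, were not called, with changes of 0.36, -0.13, 0.03 and -0.09. A repeat with a spacer of 2 bases was searched as well. It was found in 2 of 145 promoters of genes that rose, those of Slc45a3 and Stap2, against 0.0796% of promoters of genes on the array. Both genes were gained, so the same 2 promoters are the 2 of 79 among gained rises. A promoter was matched for 9887 of the 12393 genes, and the arrays do not tell which promoter of Rarb was used.

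In the acute phase promoters capitals mark TTGCNNAA, a core recognized by C/EBP factors, searched on both strands. The windows are chr4:63362199-63362498 for Orm2 (+ strand), chr4:63355908-63356207 for Orm3 (+ strand), chr7:46751583-46751882 for Saa2 (+ strand) and chr2:32387690-32387989 for Lcn2 (- strand). The match begins 120 bases upstream of the start in Orm2, 121 in Orm3, 183 in Saa2 and 216 in Lcn2.
Orm2: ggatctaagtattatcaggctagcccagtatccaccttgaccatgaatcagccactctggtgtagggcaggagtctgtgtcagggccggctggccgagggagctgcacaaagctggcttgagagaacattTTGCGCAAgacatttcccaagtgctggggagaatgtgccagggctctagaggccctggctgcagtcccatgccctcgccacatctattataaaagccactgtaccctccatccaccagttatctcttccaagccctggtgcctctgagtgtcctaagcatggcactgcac
Orm3: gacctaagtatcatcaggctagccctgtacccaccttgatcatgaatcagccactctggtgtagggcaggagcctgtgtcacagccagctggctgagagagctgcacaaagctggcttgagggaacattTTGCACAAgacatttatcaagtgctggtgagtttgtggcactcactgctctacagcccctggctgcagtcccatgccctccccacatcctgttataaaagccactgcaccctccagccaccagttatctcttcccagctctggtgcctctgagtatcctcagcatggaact
Saa2: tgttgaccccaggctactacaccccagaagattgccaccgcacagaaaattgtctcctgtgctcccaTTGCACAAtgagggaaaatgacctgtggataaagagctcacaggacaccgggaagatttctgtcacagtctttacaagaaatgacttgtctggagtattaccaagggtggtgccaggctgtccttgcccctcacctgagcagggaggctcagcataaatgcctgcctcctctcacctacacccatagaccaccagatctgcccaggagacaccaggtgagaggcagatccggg
Lcn2: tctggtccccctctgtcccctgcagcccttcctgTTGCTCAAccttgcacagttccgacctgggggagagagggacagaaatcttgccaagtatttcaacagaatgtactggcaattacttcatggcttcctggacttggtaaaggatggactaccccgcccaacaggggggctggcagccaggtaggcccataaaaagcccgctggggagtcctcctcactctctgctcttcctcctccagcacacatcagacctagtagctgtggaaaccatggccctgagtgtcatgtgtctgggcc

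This core was found in 7 of 12 promoters of acute phase genes that rose (58.3%), in 24 of 145 promoters of all genes that rose (16.6%) and in 12 of 72 promoters of genes that fell (16.7%), against 9.43% of the promoters of genes on the array. In the same 12 acute phase promoters a STAT core, TTCNNNGAA, was found in 2 and an NF-κB site in 1. The corresponding shares of promoters of genes on the array were 6.97% and 10.2%. The Orm genes are near-identical copies, as are Saa1 and Saa2, so that their probe sets may share signal and their promoters are not independent. Promoters of acute phase genes that did not pass were not counted apart, so the share of 58.3% does not bear on the response to RA. A match describes the letters in these windows and not the binding of a factor.

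Cyp26a1 read 12.54, 12.58 and 12.37 in WT_RA and 11.39, 11.34 and 11.15 in KO_RA livers, against 7.49, 8.36 and 8.11 in WT and 8.43, 8.43 and 8.69 in KO livers. Every RA array was above every normal diet array, in each genotype by more than 2 log2 units. The averaged rise was 3.65 ± 0.27 (SE, n = 6 RA and 6 normal diet arrays), 12.5-fold, with a limma adjusted p of 5.23e-05. It was 4.51 in wild type and 2.78 in deficient mice, and the difference of -1.73 did not pass (limma adjusted p = 0.0566). Rarb, the receptor gene that RA induces through its own promoter, read 6.16, 6.44 and 6.20 in WT_RA and 6.32, 5.82 and 6.52 in KO_RA livers, against 4.60, 4.85 and 5.10 in WT and 5.64, 5.64 and 5.40 in KO livers. Its RA arrays also lay above all normal diet arrays, although 2 of the 12 values fell below the lower quartile of their array. The averaged rise was 1.04 ± 0.16 (limma adjusted p = 0.00716).

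Of 12 measured targets of the RA receptors, 4 rose (33.3%, against 1.04% of all genes) and none fell. A positive change was found for 11, against 43.9% of all genes, with a median of 0.15 against -0.02 over all genes. Trim24, whose product binds these receptors as a coregulator, rose by 1.81 ± 0.21 (limma adjusted p = 0.00139). The other probe set of Trim24 changed by 0.52. Lrat, which esterifies retinol for storage, was called only over both genotypes (0.36 ± 0.06, limma adjusted p = 0.0137). Lrat stayed below the lower quartile on all 12 arrays, so the size of its change is uncertain. Rara, Rarg, Dhrs3, Stra6 and Crabp1 changed by 0.13, 0.14, 0.08, -0.04 and 0.13 and did not pass. Crabp1 lay below the lower quartile on all 12 arrays and Stra6 on 7, so a change in these 2 genes could be missed. Of 25 genes of retinoid storage, supply and oxidation, 2 rose, Cyp26a1 and Lrat, and 2 fell. The fallers were Aox3 and Aox1, aldehyde oxidases, a family that can oxidize retinal. Aox3 fell by 1.26 ± 0.18 (limma adjusted p = 0.00514) and Aox1 by 0.79 ± 0.14 (limma adjusted p = 0.0133).

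**Figure D1:**
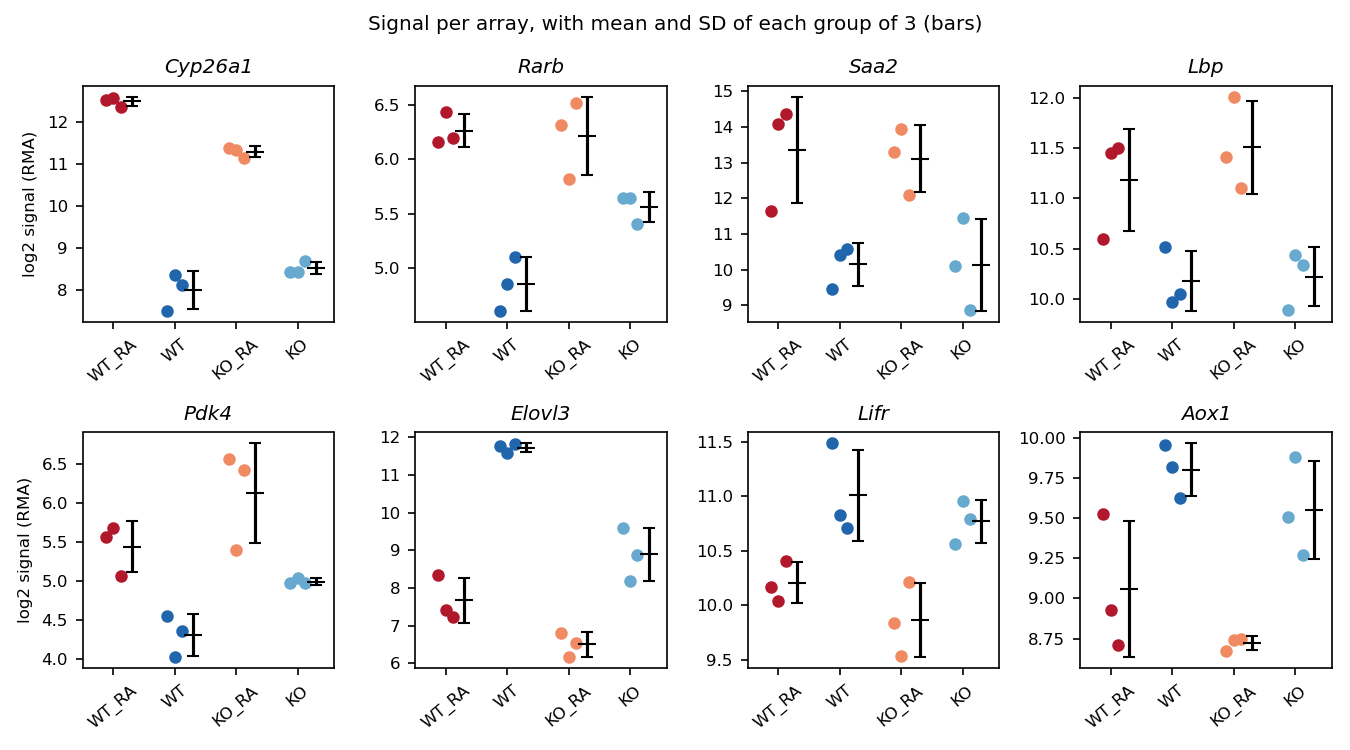
Log2 signal of 8 genes on each array, by group, with each group's mean and SD (n = 3) beside the points. The RA arrays of Cyp26a1, Rarb, Saa2, Lbp and Pdk4 all lie above the normal diet arrays, those of Lifr below, and those of Elovl3 and Aox1 overlap across genotypes but not within one.

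The genes gained by taking 6 arrays against 6 were those called for the averaged effect and in neither genotype alone. RA in wild type mice called 158 genes (1.27%) and RA in KO mice 62 (0.5%), whereas the averaged effect called 198. Of these, 20 were called in both genotypes, 50 in wild type only and 20 in deficient mice only. The remaining 108 were gained, 68 higher and 40 lower, which is 0.871% of the genes tested. The set is fixed by the calls themselves and is given as a description. The median standard error was 0.0847 for the averaged effect, against 0.117 in either genotype alone.

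Gained genes had smaller changes than the 90 called in a genotype as well, with a median size of 0.51 against 0.78 on the log2 scale. Their sizes ran between 0.27 and 3.09, and 11 exceeded 1. All 108 had the same sign in both genotypes, as did 52.2% of all genes. The RA and normal diet arrays did not overlap within either genotype for 90 of them and within 1 genotype for the other 18, against 2.7% of all genes without overlap in both, 16.6% in wild type and 20.9% in deficient mice. Across all 6 against 6 arrays, 45 did not overlap, against 1.33% of all genes. The effects in the genotypes differed by a median of 0.14 and at most 0.56 for gained genes, whereas the median was 0.39 for the 90 others. None of the gained genes had an unadjusted p under 0.05 for the difference between genotypes. These traits follow largely from how the set was chosen, by an additive effect called on the same values. They are thus no evidence that the genotypes respond alike. At the edge of the call, St6gal1 (0.41), Golim4 (0.40) and B4galt1 (0.36) lay just inside with a limma adjusted p of 0.0499. Just outside lay F8 (-0.79), Cbr1 (0.53) and Saa1 (1.34), each with 0.0506.

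**Figure D2:**
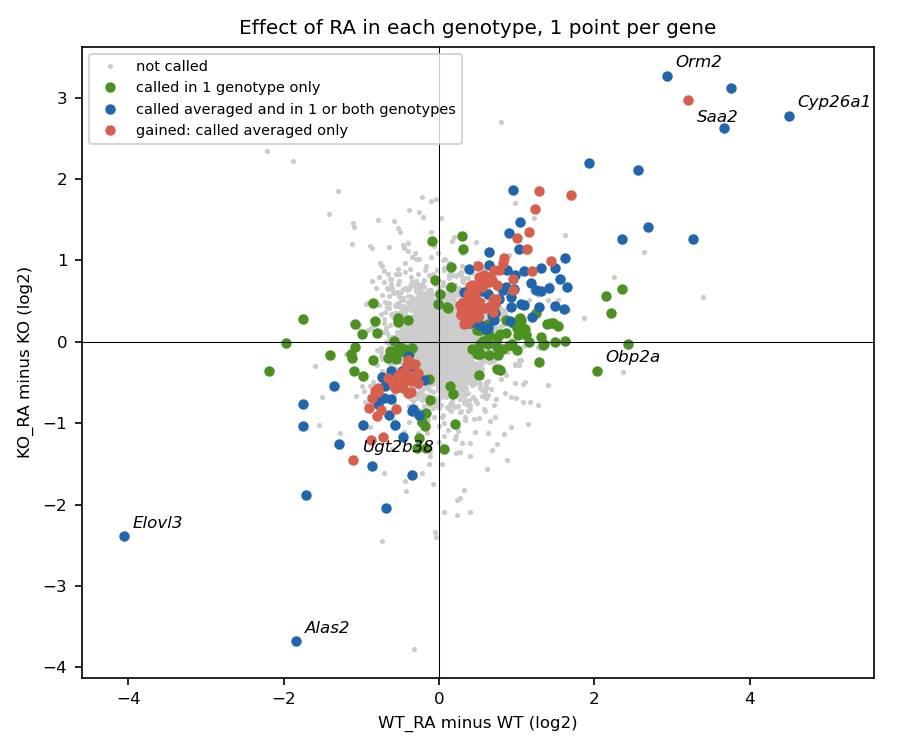
RA effect in wild type mice (WT_RA minus WT, x axis) against that in deficient mice (KO_RA minus KO, y axis), both in log2 units, 1 point per gene, coloured by where it was called. Gained genes lie near the diagonal, with effects that differ by at most 0.56, and the genes called in 1 genotype only lie nearer the axes. Both positions follow largely from how the classes were defined.

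Saa2, an inducible serum amyloid A gene, had the largest change among gained genes. It read 11.65, 14.07 and 14.36 in WT_RA and 13.31, 13.93 and 12.09 in KO_RA livers, against 9.45, 10.40 and 10.59 in WT and 10.10, 11.45 and 8.86 in KO livers. The lowest RA array, WT_RA 1, was 0.20 above the highest normal diet array, KO 2. The averaged rise was 3.09 ± 0.52 (limma adjusted p = 0.0133), against an adjusted p of 0.0693 in wild type and 0.105 in deficient mice alone. Fgl1, which encodes a liver-secreted fibrinogen-like protein, read 12.78, 13.02 and 13.02 in WT_RA and 12.85, 12.91 and 12.73 in KO_RA livers, against 11.56, 11.71 and 11.67 in WT and 9.73, 12.18 and 11.03 in KO livers. Its RA arrays were tightly grouped and all higher, while the KO arrays spread over more than 2 log2 units. The averaged rise was 1.57 ± 0.30 (limma adjusted p = 0.0218). The call was absent without WT_RA 2, KO_RA 2, WT 3 or KO 3, with adjusted p up to 0.0574.

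Lbp encodes the binding protein of bacterial lipopolysaccharide. It read 10.60, 11.45 and 11.50 in WT_RA and 11.41, 12.01 and 11.10 in KO_RA livers, against 10.52, 9.97 and 10.05 in WT and 9.89, 10.44 and 10.34 in KO livers. All RA arrays were higher, WT_RA 1 by only 0.08 over WT 1, and the averaged rise was 1.14 ± 0.19 (limma adjusted p = 0.0133). It passed with each single array left out, but not without both arrays that stood apart (adjusted p = 0.0513). Lrg1, a leucine-rich glycoprotein of plasma that rises in inflammation, read 12.94 to 13.51 on the RA arrays and 11.96 to 12.76 on the normal diet arrays, and rose by 0.90 ± 0.15 (limma adjusted p = 0.0107).

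Lrg1 was not on the list of acute phase genes. Of the 31 on it, 14 rose (45.2%, against 1.04% of all genes) and none fell. All 31 had a positive change, against 43.9% of all genes, with a median of 0.66. Of the 14, 8 were gained: Saa2, Fgl1, Lbp, Serpina3n (0.72), Orm1 (0.56), Stat3 (0.54), Cp (0.48) and Itih4 (0.41). Those beyond the leading 4 of the list were named after their values were seen. With 1 array left out, 7 of the 14 were called each time, of the gained ones only Saa2 and Lbp, and Itih4, Serpina3n and Stat3 failed only without WT_RA 2. Orm1 was called in 2 of these 12 fits and Cp in 3, and 10 of the 14 were called without both arrays that stood apart. Stat3 encodes the transcription factor through which interleukin-6 acts, Cp the plasma ferroxidase ceruloplasmin, and Serpina3n a serine protease inhibitor. Lcn2, which binds bacterial iron carriers, read 11.96 to 13.26 on the RA arrays and 8.23 to 11.29 on the normal diet arrays. All RA arrays were higher, and the rise was 3.15 ± 0.37 (limma adjusted p = 0.00139). Orm2 rose by 3.10 ± 0.34 (limma adjusted p = 0.000961) and Orm3 by 2.07 ± 0.19 (limma adjusted p = 0.000405), without overlap between the diets. Nfkbiz, an inducible NF-κB coregulator, rose by 2.34 ± 0.28 (limma adjusted p = 0.00139), and Prtn3, a protease best known from myeloid cells, rose by 3.44 ± 0.41 (limma adjusted p = 0.00139). Prtn3 read 6.89 to 10.04 on the RA arrays and 4.56 to 5.25 on the normal diet arrays, where 3 values lay below the lower quartile, which leaves the size of the Prtn3 rise uncertain.

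The size of the acute phase change varied among livers. Of the 14 genes, 12 had the WT_RA value nearest to the WT mean on WT_RA 1, and 12 had the KO_RA value nearest to the KO mean on KO_RA 3. The median deviation of the 31 genes from their own means was -0.04, 0.42 and 0.44 on the WT_RA arrays and 0.29, 0.54 and 0.13 on the KO_RA arrays, against -0.32, -0.32 and -0.25 on the WT arrays and -0.42, -0.09 and -0.26 on the KO arrays. Every RA array was above every normal diet array by this measure, WT_RA 1 by the least.

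Markers of other cell types were read beside these genes. Of 14 Kupffer cell and macrophage markers none passed for the averaged effect and none in deficient mice. In wild type mice 2 rose, Cd163 (1.49, limma adjusted p = 0.00299) and Cd14 (1.12, limma adjusted p = 0.0452). The median change of the 14 markers was 1.03 in wild type and -0.53 in deficient mice, 0.18 on average. The averaged median was 0.01 without WT_RA 3, 0.55 without KO 2 and 0.29 without KO_RA 1, and it turned to just below 0 without KO 1 and to -0.20 without both arrays that stood apart. By array, these markers deviated by -0.10 to 0.61 in WT_RA and -0.09 to 0.04 in KO_RA, against -0.79 to -0.64 in WT and -0.35 to 1.53 in KO livers. Of 11 neutrophil markers 1 rose, Lcn2, which is also an acute phase gene, and the median was 0.03. The part of these cells in the acute phase change was not tested. In whole liver, fewer cells of a type and less RNA per cell cannot be told apart.

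**Figure D3:**
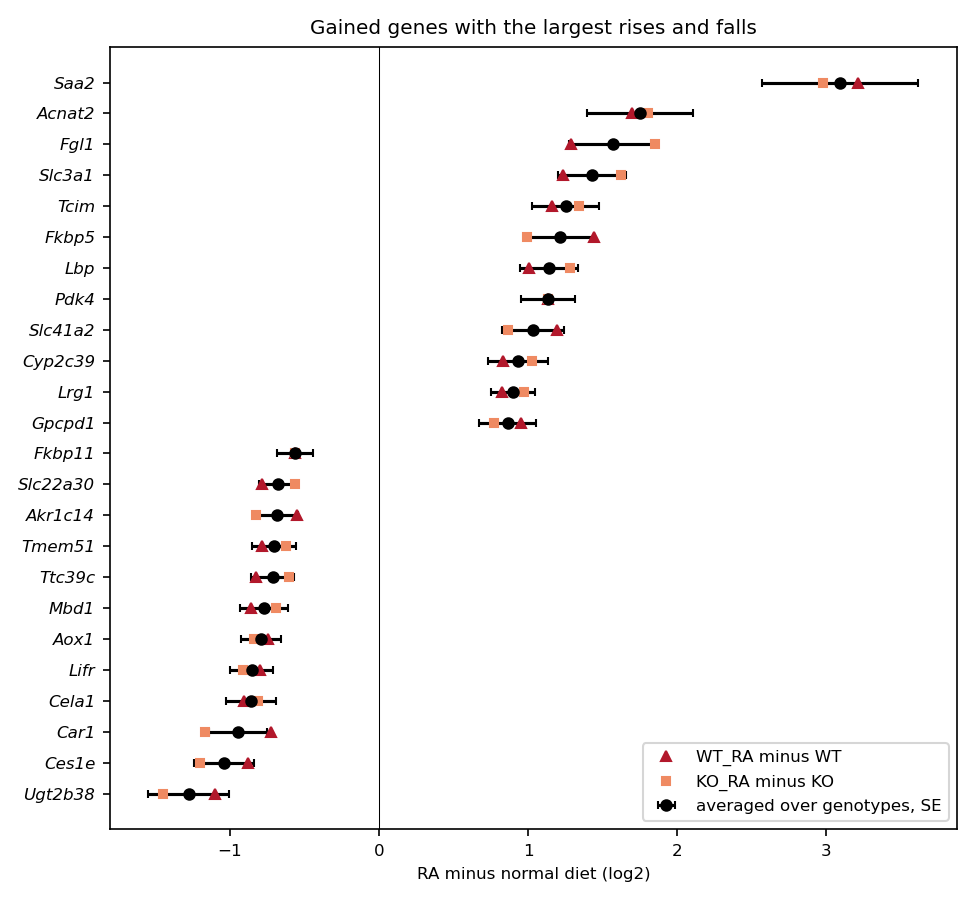
Change with RA (log2, x axis) of the 12 gained genes with the largest rises and the 12 with the largest falls, as the averaged effect with its SE (circles), the effect in wild type mice (triangles) and in deficient mice (squares). Both genotypes lie on the same side of 0 for each gene, between 3.09 for Saa2 and -1.28 for Ugt2b38 on average.

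Among gained genes of metabolism, Pdk4, the kinase that shuts off pyruvate dehydrogenase, read 5.57, 5.68 and 5.07 in WT_RA and 6.57, 5.40 and 6.42 in KO_RA livers, against 4.55, 4.02 and 4.36 in WT and 4.97, 5.04 and 4.97 in KO livers. Its RA arrays were all higher, if only by 0.03 at the closest, and 4 normal diet values lay below the lower quartile of their array. Pdk4 rose by 1.13 ± 0.18 (limma adjusted p = 0.00953), by 1.13 in wild type and 1.14 in deficient mice. Slc3a1, a subunit of the carrier for cystine and basic amino acids, read 9.33, 9.74 and 10.39 in WT_RA and 9.89, 10.62 and 9.39 in KO_RA livers, against 8.93, 8.27 and 8.55 in WT and 8.19, 8.73 and 8.11 in KO livers. Again the diets did not overlap, and the rise was 1.43 ± 0.23 (limma adjusted p = 0.00921). Both calls held with each array left out. Fkbp5, a chaperone partner of steroid receptors that glucocorticoids induce, rose by 1.22 ± 0.23 (limma adjusted p = 0.0193), and its other probe set changed by 1.18. The Fkbp5 call was absent without WT_RA 2 (adjusted p = 0.0587).

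Acnat2, of the amino acid N-acyltransferase family, rose by 1.75 ± 0.36 (limma adjusted p = 0.0289). Its values overlapped, with 7.86 to 9.69 on the RA arrays and 5.87 to 8.01 on the normal diet arrays, and with 1 array left out the call was kept only without WT_RA 1, KO_RA 3, WT 1 or KO 2 (adjusted p up to 0.083 otherwise). Nr1i3, which encodes the xenobiotic receptor CAR, rose by 0.56 ± 0.12 (limma adjusted p = 0.0413), a call kept only without WT_RA 3 or WT 1 (adjusted p up to 0.105 otherwise). Of 27 nuclear receptors only Rarb and Nr1i3 passed. Ppara changed by 0.27 ± 0.81, with 5.92 on WT_RA 3 and 6.35 on KO 1, the arrays that stood apart, and 9.18 to 10.61 on the others. Nr1h4, which encodes the bile acid receptor FXR, changed by 0.20, its target Nr0b2 by 0.20 and Cyp7a1, the rate-limiting enzyme of bile acid synthesis, by -0.34, and none of them passed. Abcg5, a subunit of the sterol exporter of the canalicular membrane, was the 1 of 13 transporters of bile acids and sterols that rose (0.65 ± 0.12, limma adjusted p = 0.0172), a call absent without WT_RA 2 (adjusted p = 0.0557).

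Among gained genes that fell, Lifr, the receptor subunit for leukemia inhibitory factor, read 10.17, 10.04 and 10.41 in WT_RA and 9.84, 9.53 and 10.21 in KO_RA livers, against 11.49, 10.83 and 10.71 in WT and 10.56, 10.96 and 10.79 in KO livers. All RA arrays were lower, and the fall was -0.86 ± 0.15 (limma adjusted p = 0.0133). The other probe sets of Lifr changed by -0.32 and -0.37. Aox1 read 9.53, 8.93 and 8.71 in WT_RA and 8.67, 8.74 and 8.75 in KO_RA livers, against 9.96, 9.82 and 9.63 in WT and 9.51, 9.88 and 9.27 in KO livers. WT_RA 1 overlapped the KO arrays, and within each genotype the diets were apart. Both calls held with each array left out. Ces1e, a carboxylesterase, fell by 1.04 ± 0.20 (limma adjusted p = 0.022) and was the 1 of 7 carboxylesterases that passed. All 7 had a negative change (median -0.43), while 43.9% of all genes had a positive change. The Ces1e call was absent without WT_RA 2, WT 3 or KO 3, and without both arrays that stood apart. Ugt2b38, a glucuronosyltransferase, fell by 1.28 ± 0.27 (limma adjusted p = 0.036) with overlapping arrays, and its call was kept only without WT_RA 3, KO_RA 3 or WT 2 (adjusted p up to 0.101 otherwise). Cela1, an elastase gene best known from the exocrine pancreas, fell by 0.86 ± 0.17 (limma adjusted p = 0.022), a call absent without WT_RA 2, WT 2, WT 3 or KO 3. It was the only 1 of 5 exocrine pancreas markers that passed, and the median of the 5 was -0.11.

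Genes of lipid handling were called in both directions. Elovl3 read 8.35, 7.42 and 7.24 in WT_RA and 6.80, 6.16 and 6.55 in KO_RA livers, against 11.76, 11.59 and 11.82 in WT and 9.60, 8.20 and 8.88 in KO livers. The diets were apart within each genotype, and WT_RA 1 overlapped KO 2. The fall was -3.22 ± 0.33 (limma adjusted p = 0.000717), 9.34-fold. Elovl2, an elongase of polyunsaturated fatty acids, fell by 0.46 ± 0.08 (limma adjusted p = 0.0169) and was gained, though not without WT_RA 2. Lpl, the lipoprotein lipase, fell by 1.27 ± 0.17 (limma adjusted p = 0.00396), and its other probe set changed by -0.77. Lpgat1, an acyltransferase of phosphatidylglycerol, read 10.48, 10.68 and 11.07 in WT_RA and 10.76, 10.84 and 10.77 in KO_RA livers, against 9.71, 9.73 and 9.52 in WT and 10.01, 9.83 and 9.93 in KO livers. It rose by 0.98 ± 0.09 (limma adjusted p = 0.000492) without overlap. None of 20 genes of cholesterol synthesis passed, although 19 had a positive change (median 0.33), against 43.9% of all genes. The median change of these genes was 0.13 in wild type and 0.45 in deficient mice. Their median deviation from their own means was -0.17 to 0.14 in WT_RA and -0.04 to 0.72 in KO_RA livers, against -0.86, 0.06 and 0.14 in WT and -0.54, 0.29 and 0.03 in KO livers. WT 1 and KO 1 were thus the lowest arrays and the diets overlapped otherwise, and the median change was 0.23 without WT 1 and 0.20 without KO 1. Likewise none of 20 genes of mitochondrial fatty acid oxidation and ketogenesis passed (median -0.05), nor any of 19 genes of fatty acid and triglyceride synthesis (median -0.04).

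Among 15 epoxygenases and hydrolases of arachidonic acid, all 3 calls were gained. Cyp2c39 rose by 0.93 ± 0.20 (limma adjusted p = 0.0409), a call kept only without KO_RA 2, KO_RA 3 or KO 3 (adjusted p up to 0.107 otherwise). Cyp2c68 fell to 11.34 to 11.45 on the RA arrays, against 11.60 to 12.21 on the normal diet arrays (-0.51 ± 0.09, limma adjusted p = 0.0151). Ephx2, the soluble epoxide hydrolase, fell by 0.41 ± 0.07 (limma adjusted p = 0.0177), a call absent without WT_RA 2 and also when WT_RA 3 and KO 1 were both left out. Cyp2c genes are close paralogs, so that their probe sets may share signal. The study names 8 genes as induced by RA in wild type mice, a different contrast from the averaged one, and chose them on these arrays. For the averaged effect none passed and 6 were positive (median 0.26), and in wild type mice alone none passed either (median 0.21). The study drew its genes from loadings in a principal component analysis of lipid genes, and not from a test of each gene. A missing call here is thus no test of that choice. Cbr1 came nearest on average (0.53 ± 0.12, limma adjusted p = 0.0506), and under 8 of 20 alternative settings it was called, with adjusted p down to 0.0294. Cyp2c37 was called without KO 1 (adjusted p = 0.0465) and without both arrays that stood apart (adjusted p = 0.032). All KO_RA and KO values of Cyp2c37, 6 in all, lay below the lower quartile of their array, so the size of its change is uncertain.

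Male-biased liver genes fell in 5 of 13 cases (38.5%, against 0.557% of all genes) and rose in none. Their median was -0.70, with 11 negative changes, while 43.9% of all genes had a positive change. The 5 were Elovl3, Hsd3b5, Ugt2b38, Gstp1 and Cyp4a12a. Hsd3b5, a steroid dehydrogenase, fell by 1.39 ± 0.27 (limma adjusted p = 0.0213), a call absent without WT 2 or WT 3 and without both arrays that stood apart. Cyp4a12a, a fatty acid hydroxylase, read 11.15 to 11.90 on the RA arrays and 12.02 to 12.41 on the normal diet arrays, with no overlap (-0.70 ± 0.10, limma adjusted p = 0.00514). Of 13 female-biased genes none passed, and 9 had a positive change (median 0.29). Hsd17b6, another steroid dehydrogenase, fell by 1.80 ± 0.21 (limma adjusted p = 0.00139), while its other probe set changed by -0.06.

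Of 16 genes of iron handling, 4 rose (25%, against 1.04% of all genes) and none fell. Tfrc, the transferrin receptor, read 9.38, 9.05 and 9.16 in WT_RA and 9.70, 9.60 and 9.25 in KO_RA livers, against 8.55, 8.33 and 7.99 in WT and 7.94, 8.64 and 7.95 in KO livers. It rose by 1.12 ± 0.15 without overlap (limma adjusted p = 0.00351), and its other probe sets changed by 0.16 and 0.41. Bmp6, the ligand through which liver endothelium raises hepcidin in hepatocytes, rose by 0.60 ± 0.07 (limma adjusted p = 0.00139), although 3 of its values were below the lower quartile. Gained were Tfr2, an iron sensor of hepatocytes (0.38 ± 0.08, limma adjusted p = 0.0422), and Slc39a14, which imports iron and zinc (0.71 ± 0.15, limma adjusted p = 0.0333). With 1 array left out, the call of Tfr2 was kept only without WT_RA 1, WT 1 or KO 1, and that of Slc39a14 only without WT_RA 1, KO_RA 3, WT 1 or KO 3, with adjusted p up to 0.106 and 0.0941 otherwise. Alas1, the rate-limiting enzyme of heme synthesis in hepatocytes, was gained as well (0.69 ± 0.15, limma adjusted p = 0.0423), a call kept only without WT_RA 3, KO 1, KO 2 or KO 3 (adjusted p up to 0.108 otherwise). Its erythroid counterpart Alas2 read 10.26, 6.72 and 9.51 in WT_RA and 7.61, 6.38 and 7.60 in KO_RA livers, against 10.74, 10.57 and 10.69 in WT and 10.69, 10.93 and 11.01 in KO livers. All RA arrays were lower, by widely different amounts, and the fall was -2.76 ± 0.53 (limma adjusted p = 0.022), a call absent without WT_RA 2 or KO 3. Alas2 was 1 of 4 erythroid markers measured by a probe set of their own. The other 3 did not pass, but 2 of them lay below the lower quartile on every array, so a fall in those 2 could be missed. In addition, 4 probe sets shared among hemoglobin genes fell, with changes of -1.69 to -1.96. The part of blood cells in the fall of Alas2 was not tested.

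**Figure D4:**
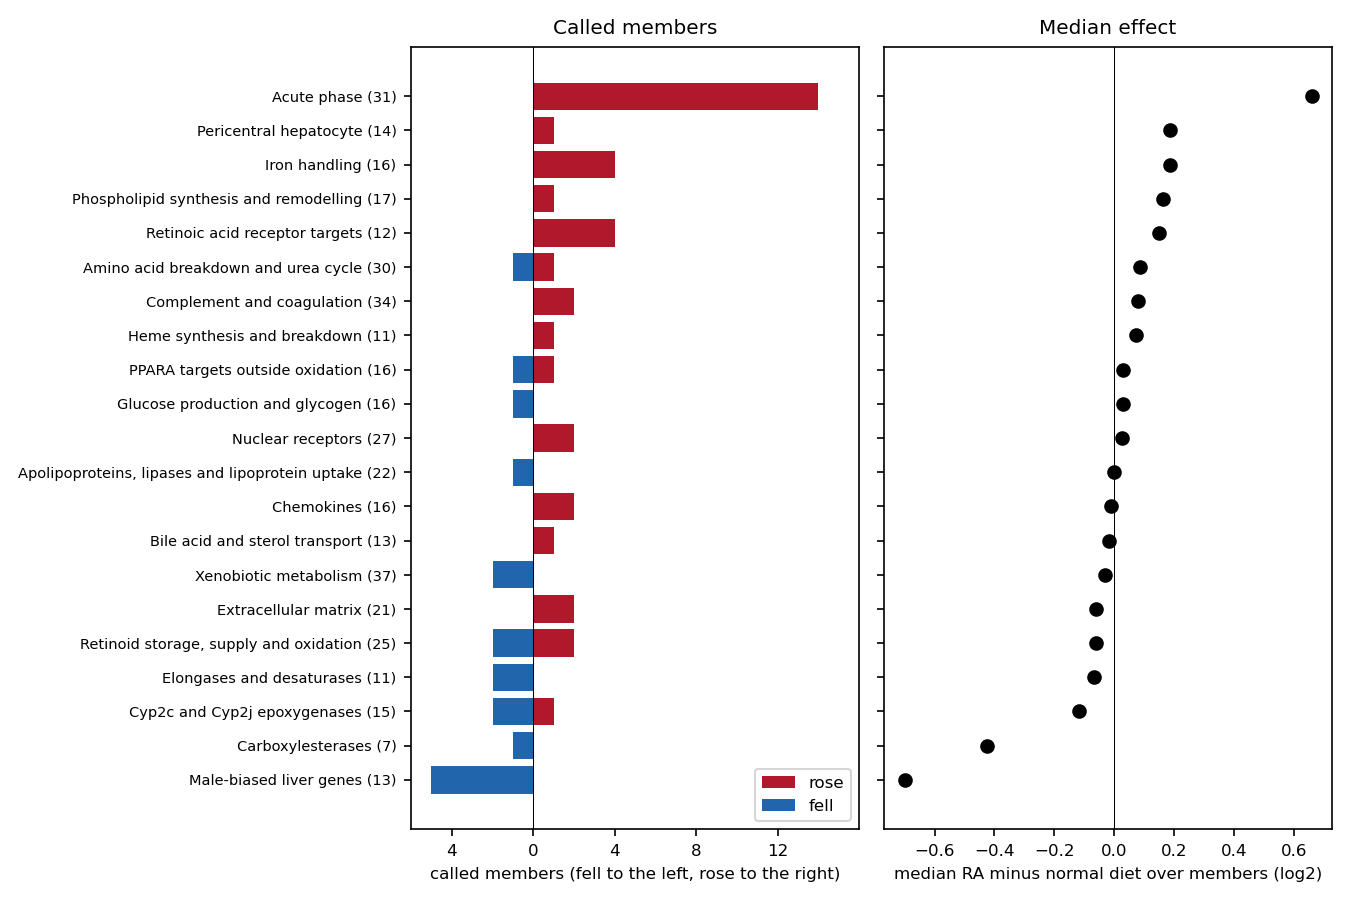
Gene lists other than those of cell type markers, with at least 1 called member, and with the number measured in parentheses. The left panel gives the members that rose (to the right) and fell (to the left) with RA, and the right panel the median change over all members (log2), from 0.66 for acute phase genes to -0.70 for male-biased genes.

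Other called genes formed smaller groups. Of 16 chemokines 2 rose, Cxcl14 (2.27 ± 0.45, limma adjusted p = 0.0248) and Ccl6 (1.33 ± 0.23, limma adjusted p = 0.0137), and the Cxcl14 call was kept only without WT_RA 3, KO_RA 2, KO_RA 3, KO 2 or KO 3 (adjusted p up to 0.0748 otherwise). Timp3, an inhibitor of metalloproteinases, read 7.75 to 7.97 on the RA arrays and 6.75 to 7.22 on the normal diet arrays. Its rise of 0.90 ± 0.07 (limma adjusted p = 5.23e-05) had the smallest adjusted p beside Cyp26a1, and its other 3 probe sets changed by 0.13 to 0.75. Ahr, the aryl hydrocarbon receptor gene, rose by 0.96 ± 0.14 (limma adjusted p = 0.00514), and its other probe set changed by 0.08. Bmp2, a ligand of the same family as Bmp6, rose by 1.26 ± 0.14 (limma adjusted p = 0.000961) without overlap. Of 37 genes of xenobiotic metabolism 2 fell, the glutathione transferases Gsta4 (-0.80 ± 0.11, limma adjusted p = 0.00432) and Gstp1 (-0.77 ± 0.11, limma adjusted p = 0.0037). None passed among 22 interferon-stimulated genes (median -0.32), 39 of oxidative phosphorylation (-0.12), 30 of the unfolded protein and stress response (0.18), 13 of antigen presentation (-0.18) and 13 hepatocyte markers (0.01). The interferon-stimulated genes had a median change of -0.0019 in wild type and -0.66 in deficient mice, and those of antigen presentation -0.02 in wild type and -1.01 in deficient mice. KO 2 had the highest level of both lists, with median deviations of 1.26 and 1.95, and KO 3 the next, with 0.45 and 0.60, whereas no other array exceeded 0.03. Without KO 2 the averaged medians were -0.14 for the interferon-stimulated genes and -0.15 for antigen presentation, and without WT_RA 3 and KO 1 they were -0.54 and -0.41. Without KO 1 alone the interferon-stimulated genes had a median of -0.50.

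Averaging also set genes aside. Of the genes called in a genotype alone, 88 in wild type and 22 in deficient mice were not called on average. Among these 110 genes, 42 had opposite signs in the genotypes and 87 still had an unadjusted p under 0.05 for the averaged effect. Cyp8b1, the hydroxylase needed to make cholic acid, read 10.64, 9.99 and 8.27 in WT_RA and 11.41, 11.66 and 11.49 in KO_RA livers, against 11.47, 12.02 and 11.95 in WT and 11.80, 11.81 and 12.01 in KO livers. Its averaged change was -1.27 ± 0.39 (limma adjusted p = 0.157), with -2.18 in wild type and -0.35 in deficient mice. Abcb11, the bile salt exporter, averaged -0.40 ± 0.11 (limma adjusted p = 0.0965), with -0.63 in wild type and -0.17 in deficient mice, and was called without KO 2 (adjusted p = 0.0321) or with 1 coefficient per group (adjusted p = 0.0372). Only Obp2a, a lipocalin gene, passed for the difference between genotypes (1 gene lower, 0.00807% of those tested, -2.39, limma adjusted p = 0.00503, with 1446 genes at an unadjusted p under 0.05). It read 7.77, 7.16 and 7.12 in WT_RA and 4.19, 4.36 and 4.28 in KO_RA livers, against 5.28, 5.07 and 5.59 in WT and 4.77, 4.59 and 4.53 in KO livers. All KO_RA and KO values lay below the lower quartile of their array, 6 in all, so the sizes of the change in deficient mice and of the difference are uncertain. Its averaged change, 0.84 ± 0.36, did not pass (limma adjusted p = 0.334), though it did with 1 coefficient per group (adjusted p = 0.00491). Across all 12393 genes the effects in wild type and deficient mice, which share no arrays, had a Pearson r of 0.18 and a Spearman rho of 0.04, given as a description since genes are not independent replicates.

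Single arrays moved these counts. With 1 array left out the averaged effect called 74 to 187 genes, and 71 of the 198 genes were called in all 12 such fits. Of the gained genes, 18 of 108 were, among them Saa2, Slc3a1, Tcim, Lbp, Pdk4, Lrg1, Lifr, Aox1, Cyp2c68 and Ugp2, against 53 of the 90 others. The averaged count was lowest, at 74, without WT_RA 2. Leaving out WT 3 gave 104 genes, WT 2 gave 120, KO 3 gave 126 and KO_RA 2 gave 132. Without WT_RA 2, 89 of the gained genes were not called. Without both arrays that stood apart, 135 genes were called on average, and 38 of the 108 gained genes and 62 of the 90 others were among them. Genes not among them included Lbp, Acnat2, Nr1i3, Ces1e, Cela1, Cyp2c39, Ephx2, Ugp2, Tfr2, Slc39a14, Hsd3b5 and Cxcl14. With diet alone in the model the calls lost included those of Pdk4, Ahr, Abcg5, Acnat2, Alas1, Ces1e, Cyp2c39, Elovl2, Ephx2, Tfr2, Ugp2 and Ugt2b38, and with the replicate number as a block those of Acnat2, Cyp2c39, Nr1i3 and Tfr2. Among the genes described, a trended robust prior ended the calls of Acnat2, Alas2, Cxcl14 and Ugt2b38, a further quantile normalization those of Alas1 and Cyp2c39, and the mean of all probe sets that of Alas1. Among other genes of the naming rule, the mean of all probe sets also ended the calls of Dnase1l3, Fabp4, Fn1, Mbd1 and Rassf3, and the trended robust prior that of Gpcpd1.

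**Figure D5:**
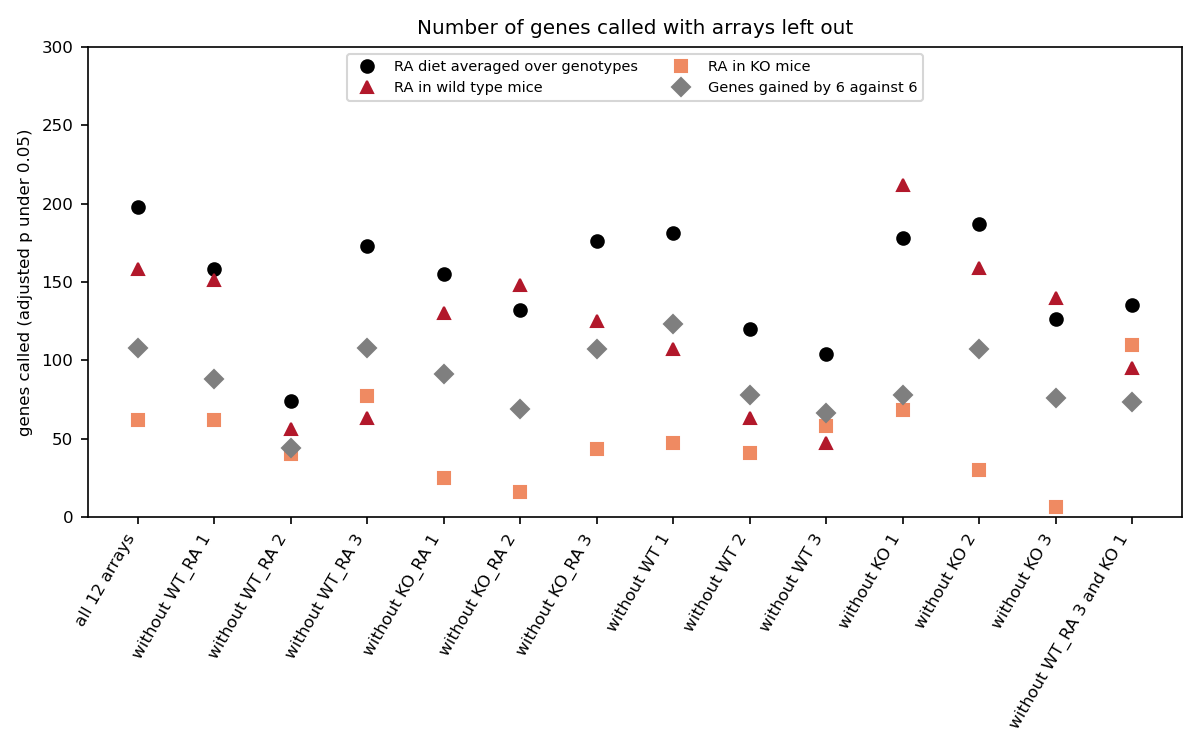
Number of genes called at an adjusted p under 0.05 with all 12 arrays, with each array left out and without both arrays that stood apart, for the averaged effect, each genotype and the gained genes. The averaged count is 198 with all arrays and 74 without WT_RA 2, and the gained count is 108 and 44.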

How the data were processed

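Liver RNA of 12 mice was hybridized to Affymetrix mouse arrays. The authors deposited log2 values, 1 per probe set and array. The submitters' processing notes name RMA and Partek 6.11, while the study's methods describe MAS5 for its own analysis. Scanner files were not used here, so background correction was not repeated. Of 22690 probe sets, 64 were controls, 20380 had 1 gene symbol, 691 several and 1555 none. The probe set with the highest mean represented each gene, leaving 12393 genes, 4956 with more than 1 probe set, with no filter on dim signals.

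The averaged diet effect came from limma 3.58.1 in R 4.3.3 (lmFit and eBayes, two-sided, genotype plus diet, 9 residual degrees of freedom). Effects within genotypes and their difference came from 1 coefficient per group (8 residual degrees of freedom). P-values were Benjamini-Hochberg adjusted over all genes and called under 0.05. The fit was tested on simulated data. The number of arrays limits precision.

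Members, lists and the 98 named genes were chosen with earlier results of these data known. Named were the 15 largest rises and falls without overlap within a genotype, the 12 largest gained rises and falls, up to 4 called members per list (by adjusted p), retinoid and nuclear receptor genes, genes called for the difference, and genes the study names. The 47 lists held 719 measured genes.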

Additional observations from a re-analysis of the deposited data

Results flagged for a closer look

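In 6 of 146 sets of 6 arrays of 1 diet, 1 array lay far from the others by Dixon's criterion. Chance gives about 1 in 20 for values of a single group. Each set here held both genotypes, so that rate is only a rough guide. On WT_RA 1, Orm2 read 10.5 and Orm3 8.77, below the other RA arrays, and Aox1 read 9.53, above them. Cyp2c39 read 8.75 on KO 2, Kng1, a kininogen, 12.81 on KO 3, and Otc, an enzyme of the urea cycle, 11.77 on KO_RA 3.

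The RA effects on Obp2a differed between the genotypes, by -2.39 (deficient minus wild type).

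Probe sets with several or no gene symbols lay outside the gene table. Tested apart, 19 of 2246 were called for the averaged effect, 10 higher and 9 lower. Those that fell included 4 shared by hemoglobin genes.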

How the results depend on the processing

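With 20 alternative settings, 33 of the 73 called named genes passed in every setting that gave them a value. Among them were Cyp26a1, Rarb, Orm2, Orm3, Lcn2, Saa2, Elovl3, Lifr and Aox1. Rarb, Bmp6 and Lrat had a value in only 19 settings, since they dropped out with dim probe sets left out. The call was lost in at least 1 setting for 40 genes, while none reversed. Counts of calls moved by over 1.5 times as follows, and the cause was not tested. The averaged count was 115 with diet alone, without the genotype covariate. RA in KO mice gave 107 with a further quantile normalization. Without both arrays that stood apart RA in KO mice gave 110 and RA in wild type mice 95. The difference between genotypes, 1 gene as reported, gave 2 with the replicate block, 0 with dim probe sets left out (Obp2a lies below that limit), 6 with the mean of all probe sets, 5 with a trended robust prior and 12 without both arrays. Leaving out 1 array gave 74 to 187 genes on average, 47 to 212 in wild type, 6 to 77 in KO, 1 to 14 for the difference and 44 to 123 gained. With 1 coefficient per group 290 genes were called on average, including all 198. The median of Kupffer cell and macrophage markers ranged from -0.0057 without KO 1, where it turned, to 0.549 without KO 2, and was -0.199 without both arrays.

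The replicate numbers did not pair the samples: of 18 same-numbered pairs, 5 had deviations correlated over 0.1 (r from -0.458 to 0.266). With the number as a replicate block, 150 genes were called on average, 113 in wild type and 60 in KO mice, and 87 were gained.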
